A study of Homo sapiens with 3 samples.

Results

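The 9 genes described here encode subunits of the transcription factor NF-kappaB and genes that it induces. They were chosen by name from the 26485 genes of a count table of human HEC1B cells, an established endometrial cancer cell line. RELA, RELB, NFKB1 and NFKB2 encode subunits. NFKBIA and TNFAIP3 encode inhibitors of the pathway, and TNFAIP2, ICAM1 and BIRC3 are further target genes. All cells had been given an siRNA and RNA was taken at 48 h. The siNC library is the control and carries the genotype label WT. The siPRMT6-1 and siPRMT6-2 libraries carry the label PRMT6 knockdown and were made with different siRNAs against PRMT6, which the sample titles number 1 and 2 and the descriptions and column headers number 2 and 3. Titles and headers were joined through each sample's own description. PRMT6 is the gene of an enzyme that methylates arginines, among them those of histones. Each of the 3 was a single library, so no siRNA has a replicate of its own.

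NF-kappaB subunits bind DNA as dimers. In unstimulated cells most dimers are held in the cytoplasm by IkB proteins such as IkB-alpha, the product of NFKBIA. Signals from cytokine receptors or nucleic acid sensors activate kinases that mark the IkB proteins for destruction, and the freed dimers enter the nucleus. There they induce adhesion molecules, survival factors and chemokines. They also induce NFKBIA, TNFAIP3 and several subunit genes, so the pathway restrains and renews itself. In epithelial cells the same dimers take part in responses to infection alongside the interferon system.

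The libraries held 362080 to 410916 counts in all, and 5512 to 5754 genes had at least 10 counts. PRMT6 itself was below the control in both knockdown libraries, with 4 counts for siPRMT6-1 and 7 for siPRMT6-2 beside 25 for siNC, but its adjusted p in edgeR was 1.000. Of 8 epithelial markers, KRT8, KRT18 and PAX8 had 85 counts or more in each library. EPCAM, MUC1 and CLDN4 had 0 to 6, and KRT19 and CDH1 were at 0 in all 3. KRT8 and KRT18 share exon bases on opposite strands, and PAX8 shares them with PAX8-AS1. Reads had been counted with the strand setting 1. Genes named as antisense outnumbered the partner whose exon bases they share in 150 to 153 of 185 pairs in each library. VIM-AS1 had 12493 counts in the control, 9718 with siPRMT6-1 and 14307 with siPRMT6-2, beside 312, 291 and 392 for VIM, a filament gene that is usually abundant. No member shares exon bases with an opposite-strand gene in the deposited models. GENCODE release 29 has noncoding genes on the opposite strand over parts of ICAM1, TNFAIP3 and RELA. In most of these pairs the counts thus lay mostly with the antisense-named gene, on the strand opposite to its partner. If the same holds for the members, their values are counts of antisense reads, which was not tested.

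The promoters of several members carry the sequence that NF-kappaB dimers bind, and those sites are shown first because the members that hold them are the ones compared below. RefSeq promoter windows on GRCh38.p14, the same chromosome coordinates as hg38, were searched on both strands for the kappaB consensus motif. A window runs from 250 bases before a start site to 50 bases from it. The table matched 8 of the 9 members, all but RELB, with 12 windows. A consensus match was present in 6 of these windows and 5 of these members, against 5.91% of all 35116 windows and 7.09% of all 27305 gene symbols in the table. Each line gives 30 bases in the direction of the gene, with the match in capitals.

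NFKB1, chr4:102501300-102501329, plus strand: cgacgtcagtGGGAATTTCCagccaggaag
NFKB2, chr10:102394461-102394490, plus strand: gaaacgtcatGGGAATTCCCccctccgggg
NFKB2, chr10:102395674-102395703, plus strand: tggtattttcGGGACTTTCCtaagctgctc
NFKBIA, chr14:35404811-35404840, minus strand: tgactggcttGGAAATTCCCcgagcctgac
TNFAIP3, chr6:137867182-137867211, plus strand: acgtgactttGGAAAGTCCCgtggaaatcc
TNFAIP3, chr6:137867194-137867223, plus strand: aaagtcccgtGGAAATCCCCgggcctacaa
BIRC3, chr11:102317275-102317304, plus strand: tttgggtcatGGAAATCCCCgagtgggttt
BIRC3, chr11:102317339-102317368, plus strand: tattaccgctGGAGTTCCCCtaagtcctaa

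The first NFKB2 site reads the same on both strands, and a second match on the other strand overlaps it. NFKB2 held 2 more consensus matches, starting 78 and 176 bases before different start sites. The windows of RELA, TNFAIP2 and ICAM1 held no consensus match. The only TNFAIP2 window, chr14:103123211-103123510, lies before the counted gene model, which starts at 103126327, and that start was not searched. The counted ICAM1 model starts at 10270841, before the only ICAM1 window, so that start was not searched either. The NFKB2 and TNFAIP3 matches lie past the starts of their counted models. A shorter motif, GGAAATNCC, was present in 5 of the 12 member windows and in 1.44% of all windows. In NFKB1, NFKBIA, TNFAIP3 and BIRC3 it overlaps a consensus match. In ICAM1 it stands alone, starting 186 bases before the RefSeq start site but past the start of the counted model.

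ICAM1, chr19:10270924-10270953, plus strand: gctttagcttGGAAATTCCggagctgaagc

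The NFKBIA promoter is shown at length because this gene had the largest gap in counts between the knockdown libraries relative to its own level among members with at least 20 counts in 1 library. The 245 bases end just before the gene's first exon in the deposited model, at chr14:35404755-35404999 on the minus strand.

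NFKBIA promoter: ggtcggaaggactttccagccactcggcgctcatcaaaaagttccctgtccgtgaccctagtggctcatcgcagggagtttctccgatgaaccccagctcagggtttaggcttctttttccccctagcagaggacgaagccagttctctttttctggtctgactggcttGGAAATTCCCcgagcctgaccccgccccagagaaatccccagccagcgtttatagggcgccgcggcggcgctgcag

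**Figure D1:**
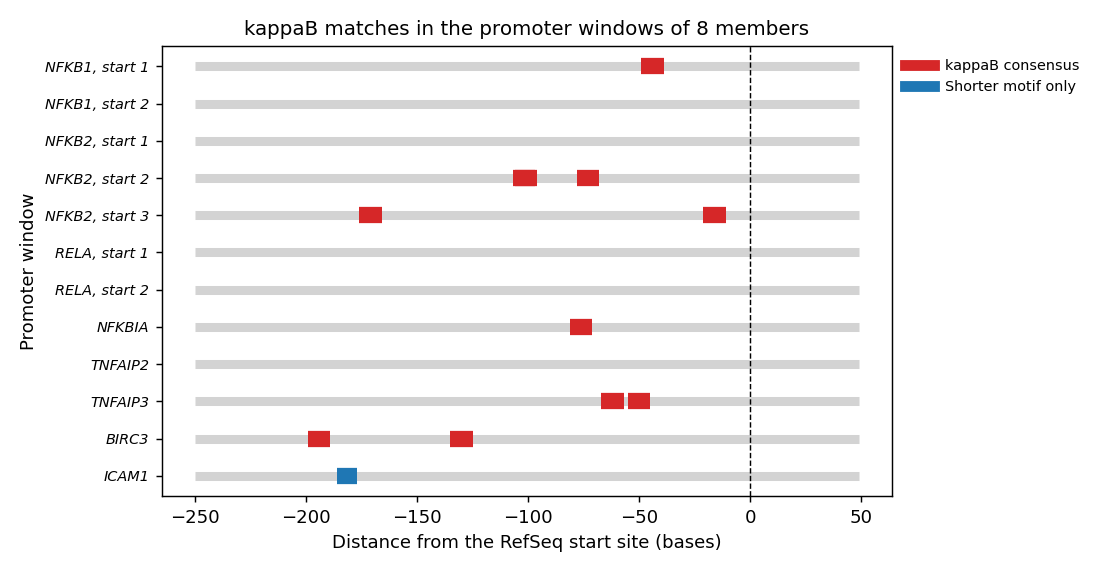
Matches to the kappaB consensus (red) and, where no consensus match overlaps, to the shorter motif (blue) in the 12 promoter windows of 8 members. The horizontal axis is the distance from the RefSeq start site in bases, and grey bars are the windows. All consensus matches lie before the RefSeq start site of their window, and RELA and TNFAIP2 have no match of either kind.

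Together the 9 members held 170 counts in the control, 104 with siPRMT6-1 and 296 with siPRMT6-2. The control thus lay between the knockdown libraries. Relative to siNC, and as CPM (a gene's count relative to the library's TMM-scaled total), the sum was 0.637 times with siPRMT6-1, with a 95% exact binomial interval of 0.494 to 0.817. With siPRMT6-2 it was 2.04 times (1.68 to 2.47). The siPRMT6-2 library held 3.20 times the siPRMT6-1 level (2.55 to 4.04). These intervals cover counting error between single libraries only. Both comparisons with siNC share that control, while siPRMT6-2 against siPRMT6-1 does not use it. The lower sum with siPRMT6-1 rests on TNFAIP2. Without it, the ratio was 0.787 with an interval of 0.592 to 1.04 that includes no change.

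The subunit genes and the other members differed in siPRMT6-1, where the subunits held a larger share. The 4 subunit genes held 89 counts in the control, 79 with siPRMT6-1 and 139 with siPRMT6-2, and the 5 inhibitors and targets had 81, 25 and 157. TNFAIP2 alone held 51, 14 and 53 of the latter, and for these groups neither a share nor a ratio was taken without it. In siNC the subunits made up 52.4% of the members' counts (exact binomial interval 44.6 to 60.1). Their share was 76.0% in siPRMT6-1 (66.6 to 83.8) and 47.0% in siPRMT6-2 (41.2 to 52.8). The siNC and siPRMT6-2 intervals overlap. The share is taken within a library and does not depend on how libraries are scaled. For the inhibitors and targets, the siPRMT6-1 level was 0.321 of the control (0.196 to 0.508), and the siPRMT6-2 level was 2.27 times it, with a lower bound of 1.72. For the subunits the ratios were 0.924 (0.674 to 1.26) and 1.83 (1.39 to 2.41).

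**Figure D2:**
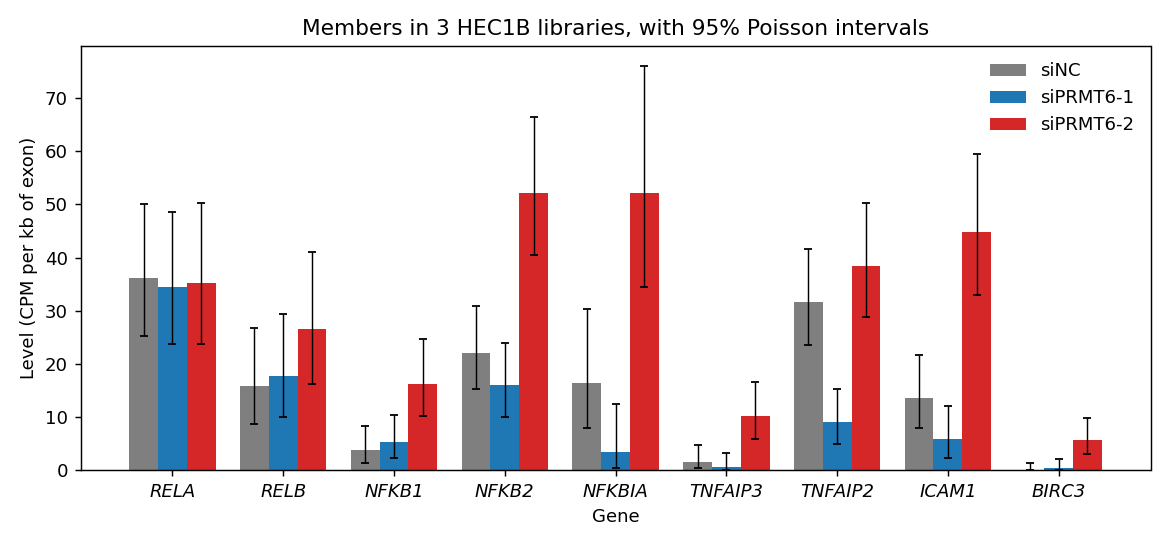
Level of each member in the siNC, siPRMT6-1 and siPRMT6-2 libraries as CPM per kb of exon, with 1 library a bar and 95% exact Poisson intervals as error bars. RELA stays between 34.5 and 36.2, while NFKB2, NFKBIA and ICAM1 reach 44.8 to 52.2 in siPRMT6-2.

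RELA encodes the main activating subunit (hg38 chromosome 11, 65653596 to 65662972, minus strand). Its counts were 36 for siNC, 33 for siPRMT6-1 and 30 for siPRMT6-2, the flattest profile of the 9. Its ratio to siNC was 0.954 for siPRMT6-1 (0.576 to 1.57) and 0.974 for siPRMT6-2 (0.580 to 1.63). Neither interval reaches a change of 2-fold. RELB, the subunit of the noncanonical pathway that acts mainly with the NFKB2 product (chromosome 19, 45001449 to 45038198, plus strand), had 14, 15 and 20 counts in the same order. With siPRMT6-2 it was 1.67 times siNC, but the interval of 0.802 to 3.57 includes no change.

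Both genes of the precursor subunits were high in siPRMT6-2. NFKB1, whose product is processed to a DNA-binding subunit that lacks an activation domain (chromosome 4, 102501329 to 102617302, plus strand), had 6, 8 and 22 counts. The siPRMT6-2 level was 4.29 times that of siNC (1.69 to 12.9) and 3.09 times that of siPRMT6-1 (1.32 to 8.02). NFKB2 (chromosome 10, 102394110 to 102402529, plus strand) was counted 33 times in the control, 23 times with siPRMT6-1 and 67 times with siPRMT6-2. The ratio to siNC was 2.37 for siPRMT6-2 (1.54 to 3.72) and 0.725 for siPRMT6-1 (0.407 to 1.27). Only with siPRMT6-2 did the intervals of these 2 genes leave out no change.

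Both inhibitors were lowest in siPRMT6-1 and highest in siPRMT6-2. NFKBIA (chromosome 14, 35401510 to 35404754, minus strand), whose promoter is printed above, had 10 counts in the control, 2 with siPRMT6-1 and 27 with siPRMT6-2. Its CPM was 0.208 times siNC with siPRMT6-1 (0.0222 to 0.977), which rests on 2 counts, and 3.16 times with siPRMT6-2 (1.48 to 7.31). Between the knockdown libraries it differed 15.2 times (3.81 to 132). TNFAIP3 encodes A20, an enzyme that edits ubiquitin chains on signalling proteins and so ends activation (chromosome 6, 137867188 to 137883314, plus strand). It had 3, 1 and 16 counts. The ratio to siNC was 6.23 with siPRMT6-2 (1.78 to 33.4) and not distinguishable from 1 with siPRMT6-1 (0.00661 to 4.32).

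The target genes did not share a profile. TNFAIP2, a gene first found by its induction with tumour necrosis factor (chromosome 14, 103126327 to 103137439, plus strand), was counted 51 times in siNC, 14 times in siPRMT6-1 and 53 times in siPRMT6-2. The siPRMT6-1 library alone was low, at 0.286 times siNC (0.146 to 0.524). With siPRMT6-2 the gene was 1.21 times siNC (0.811 to 1.82). ICAM1, an adhesion molecule that leukocyte integrins bind (chromosome 19, 10270841 to 10286615, plus strand), had 17, 7 and 48 counts. Its ratio to siNC was 3.30 for siPRMT6-2 (1.86 to 6.12) and 0.429 for siPRMT6-1, with an interval of 0.150 to 1.09 that includes no change. BIRC3 encodes cIAP2, a ubiquitin ligase of the receptor complexes that also protects from cell death (chromosome 11, 102317450 to 102339403, plus strand). It was at 0 counts in the control, at 1 with siPRMT6-1 and at 13 with siPRMT6-2. Against the floor of 3 counts in siNC, which equals 7.78 CPM, it was at least 5.07-fold higher with siPRMT6-2.

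**Figure D3:**
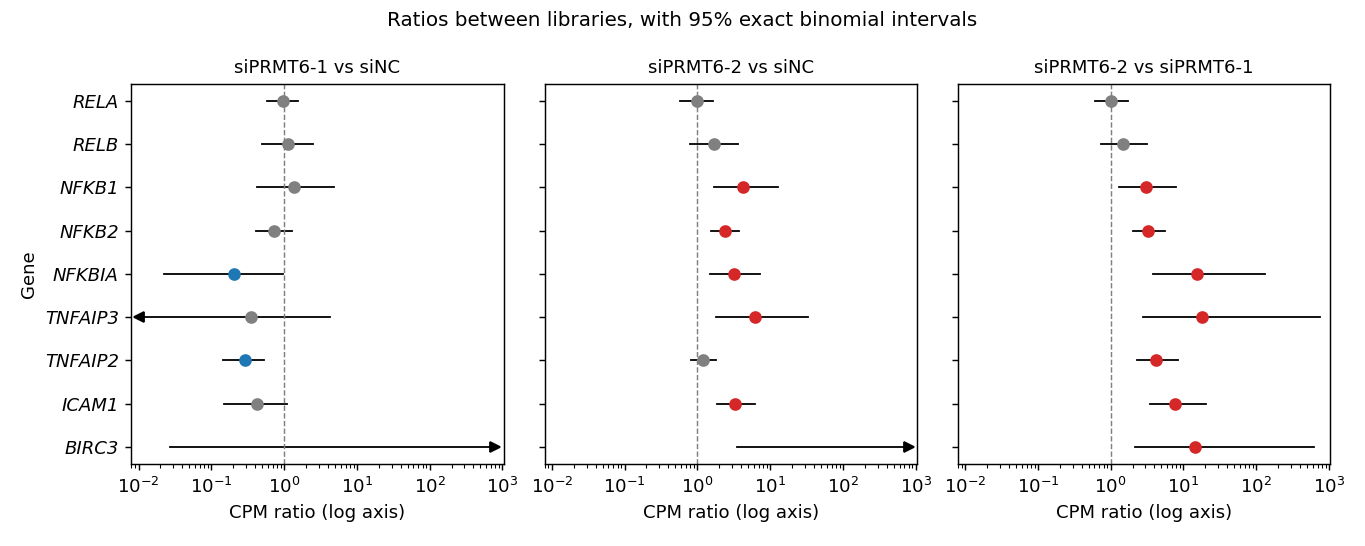
CPM ratio of each member in 3 comparisons of single libraries on a log axis, with 95% exact binomial intervals as lines. Red points have an interval above 1, blue points below 1 and grey points include 1, arrows run off the axis, and BIRC3 has no point against siNC, where it had 0 counts. With siPRMT6-1, NFKBIA and TNFAIP2 lie below 1, and in siPRMT6-2 against siPRMT6-1 all members but RELA and RELB lie above 1.

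The order of the members by level per kb of exon changed between the libraries. In siNC it ran from RELA at 36.2 CPM per kb through TNFAIP2 at 31.7 and NFKB2 at 22.0 to NFKBIA, RELB and ICAM1 at 16.5, 15.9 and 13.6. NFKB1 at 3.81, TNFAIP3 at 1.64 and BIRC3 at 0 followed. Only the step from ICAM1 to NFKB1 exceeded counting error, at 3.57 times with a lower bound of 1.34. In siPRMT6-1 RELA led at 34.5 CPM per kb, 1.94 times RELB (1.03 to 3.85), and no other neighbours differed. In siPRMT6-2 NFKB2 and NFKBIA led with 52.2 CPM per kb each, followed by ICAM1 at 44.8, TNFAIP2 at 38.5 and RELA at 35.3. BIRC3 was last at 5.70, and no 2 neighbours differed beyond counting error.

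With both siRNAs set against siNC in 1 test, as the knockdown design implies, no member passed. A total of 8 members passed the filter on low counts, all but BIRC3, and NFKB1, NFKBIA and TNFAIP3 passed it through the siPRMT6-2 library alone. By the quasi-likelihood test of edgeR, 0% of 6803 genes were called, members included, with an adjusted p of 1.000 for each member. At an unadjusted p under 0.05 it had 186 genes (2.73%) and 0 of the 8 members. The lowest unadjusted p of a member in edgeR was 0.107, for NFKB1, with a log2 fold change of 1.47 (SE 0.85). TNFAIP3 followed at 1.63 (SE 1.04), ICAM1 at 0.87 (SE 0.84), NFKBIA at 0.71 (SE 1.00) and NFKB2 at 0.62 (SE 0.63). RELB was at 0.47 (SE 0.62), RELA at −0.05 (SE 0.49) and TNFAIP2 at −0.43 (SE 0.64). DESeq2 called 0 genes and had no member under 0.05 unadjusted. An older form of the edgeR fit called 32 genes and its likelihood ratio test 31, with no member among them. The spread in this test comes from the gap between the siRNAs. In edgeR each gene's spread is drawn toward one shared over genes, with 12.8 prior against 1 residual degree of freedom. A member's p thus does not measure that gene's own gap alone.

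The members kept by the filter were also counted per siRNA, as a description, since the filter itself selects genes that are high in 1 library. The members had also been chosen with earlier results of these data known. With siPRMT6-2 the binomial interval against siNC lay above 1 for 5 of the 8 members kept (NFKB1, NFKB2, NFKBIA, TNFAIP3 and ICAM1), against 9.73% of all genes kept, and below 1 for 0, against 8.82%. Of the 5, the filter kept 3 through this library alone. Among the 5 members that reached the minimum in siNC or siPRMT6-1, the count was 2 (NFKB2 and ICAM1), against 7.05% of the 6287 genes that did so. With siPRMT6-1 the interval was above 1 for 0 members, against 5.89% of genes, and below 1 for NFKBIA and TNFAIP2, against 7.14%. For siPRMT6-2 against siPRMT6-1 it was above 1 for 6 members, against 11.3%, and below 1 for 0, against 9.61%. The same 6 had a fold of at least 2 higher there, against 9.11% of genes, and 0 lower, against 6.70%. A total of 5 of the 8 were below siNC in siPRMT6-1 and above it in siPRMT6-2 (NFKB2, NFKBIA, TNFAIP2, TNFAIP3 and ICAM1), a pattern seen in 19.2% of genes, and 0 the other way round, against 19.1%. NFKB1 and RELB were above siNC with both siRNAs, against 31.3%, and RELA below it with both, against 30.1%. The siPRMT6-2 library had the highest level for 7 of the 8, against 36.7%. Without the 3 members kept through that library, the 2-fold count against siPRMT6-1 was 3 of 5, against 5.42% of genes, the opposite pattern around siNC was seen in 3 of 5, against 17.3%, and the highest level in 4 of 5, against 31.5%. Over the 5 members not kept through siPRMT6-2 alone, the median log2 CPM differences from siNC were −0.43 with siPRMT6-1 and 0.66 with siPRMT6-2, against 0.01 and 0.01 over all genes kept.

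Members with a consensus match in the promoter window and those without can be set side by side. With siPRMT6-2, NFKB1, NFKB2, NFKBIA and TNFAIP3, which hold a match, were 2.37 to 6.23 times siNC, and BIRC3 was at least 5.07-fold higher. RELA and TNFAIP2, whose searched windows hold none, were 0.974 and 1.21 times siNC. ICAM1, whose searched window also holds no consensus match but has the shorter motif, was 3.30 times siNC. That lies within the range of the genes with a match, so the groups overlapped. With siPRMT6-1 the groups overlapped too. NFKB1, NFKB2, NFKBIA and TNFAIP3 were at 1.39, 0.725, 0.208 and 0.347 times siNC, and RELA, TNFAIP2 and ICAM1 at 0.954, 0.286 and 0.429. NFKB1, NFKBIA and TNFAIP3 had passed the filter through siPRMT6-2 alone. This is a description of 8 genes, and binding at these sites was not measured.

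The siPRMT6-2 library also stood apart in genes of the interferon response. A list of 20 such genes was set beside the members because that library was known to be high in them. It summed to 131 counts for siNC, 189 for siPRMT6-1 and 2094 for siPRMT6-2, where it was 18.7 times siNC (15.7 to 22.5). All 17 genes of the list that passed the filter had a fold of at least 2 there, against 8.16% of genes, but 15 of them passed it through that library alone. With siPRMT6-1 the list was 1.50 times siNC (1.20 to 1.89), which rests on IFITM3. The other 19 genes summed to 28 counts for siNC and 31 for siPRMT6-1, a ratio of 1.15 (0.669 to 1.99). The part of this response in the members' values was not tested. In bulk RNA, more responding cells and more RNA per cell cannot be told apart.

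Leukocytes express many of the members, so their markers were read in the same libraries. Of the 10 leukocyte markers, 7 were at 0 in all 3 libraries, PTPRC, CD3E and CD14 among them. The sums were 17, 20 and 58 counts, of which CD68, a lysosomal protein gene, held 17, 19 and 56. The endothelial sums were 38, 36 and 21, with CDH5 at 0, and the fibroblast sums were 540, 368 and 376, of which COL1A1 held 515, 354 and 370. The epithelial markers KRT19 and CDH1 were also at 0 in these libraries, so a marker at 0 does not show that a cell type was absent. The part of other cells in the members' values was not tested.

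A list of 81 other genes of the pathway was chosen with earlier results of these data known. Of these, 34 passed the filter, and 0 passed the edgeR test after adjustment. At an unadjusted p under 0.05 in edgeR there were 5, against 2.73% of genes. The 5 were SOD2, TRAF1, CCL5, CSF1 and IL1A, and all but IL1A passed the filter through siPRMT6-2 alone. With siPRMT6-2, 15 of the 34 had a fold of at least 2 higher than siNC and 0 lower, against 8.16% and 5.38% of genes. The filter kept 11 of the 34 through siPRMT6-2 alone, and these hold 9 of the 15. Among the other 23 genes, 6 were higher, against 4.58% of genes that reached the minimum in siNC or siPRMT6-1, and 0 lower, against 5.82%. With siPRMT6-1 there were 3 higher and 2 lower, against 4.89% and 4.38%. Over all 34, the median log2 CPM differences from siNC were −0.03 with siPRMT6-1 and 0.58 with siPRMT6-2, against 0.01 and 0.01 over all genes kept. The 34 include the 11 kept through siPRMT6-2 alone, and no median was taken without them.

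By role, the summed counts with siPRMT6-2 were above siNC for the feedback, IkB family and target genes of the list, and no test compared the roles. The 6 other feedback genes had 29, 28 and 62 counts, with a ratio to siNC of 2.50 for siPRMT6-2 (1.58 to 4.03). TNIP1 alone held 16, 7 and 41 of these counts, and no ratio was taken without it. The 5 genes of the IkB family had 32, 23 and 53, with a ratio of 1.94 (1.23 to 3.10). The 7 kinase genes had 102, 64 and 69 counts in sum, and the 17 adaptor and ubiquitin ligase genes had 300, 272 and 259. MAP3K7, the kinase that activates the IkB kinases, had 11, 3 and 4 counts, and IRAK1, a kinase of the interleukin-1 receptor and Toll-like receptor route, had 185, 153 and 85. The 10 receptor genes had 69, 89 and 76 counts. The 35 other target genes had 387, 385 and 695 counts. Their ratio to siNC was 2.10 for siPRMT6-2 (1.85 to 2.38) and 1.04 for siPRMT6-1 (0.897 to 1.20). A fold of at least 2 higher with siPRMT6-2 was seen in 9 of the 15 targets kept, but the filter had kept 6 of the 9 through that library alone. Among the other 9 targets it was seen in 3, against 4.58% of genes.

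Single pathway genes followed several patterns. SOD2, which encodes the mitochondrial superoxide dismutase, had counts of 1, 7 and 17, and its siPRMT6-2 level was 19.9 times the control (3.11 to 830). TRAF1, an adaptor gene that NF-kappaB induces, had 1, 2 and 23 counts. SHARPIN, a subunit of the linear ubiquitin ligase, had 11, 21 and 28 counts and was 2.98 times siNC with siPRMT6-2 (1.44 to 6.62). PLAUR, the urokinase receptor gene, had 5, 5 and 26 counts, JUNB 16, 21 and 47, and NINJ1 3, 4 and 10. IL1A was the highest in siPRMT6-1, with 1, 12 and 6 counts.

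The pathway genes with the most counts did not share a direction. SDC4, a cell surface proteoglycan gene, had 63, 58 and 120 counts, and IER3, an early response gene, had 59, 54 and 29. CFLAR, an inhibitor of death receptor signalling, had 113, 122 and 129, and its exons overlap those of a gene on the opposite strand. A further 3 genes were picked after their values were seen. TNIP1, whose product acts with A20, had 16, 7 and 41 counts, low in siPRMT6-1 and high in siPRMT6-2 like TNFAIP3. The chemokine gene CCL5 had 0, 0 and 74 counts, at least 28.8-fold higher with siPRMT6-2 than the floor in siNC. CSF1, a macrophage growth factor gene, had 6, 5 and 48.

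**Figure D4:**
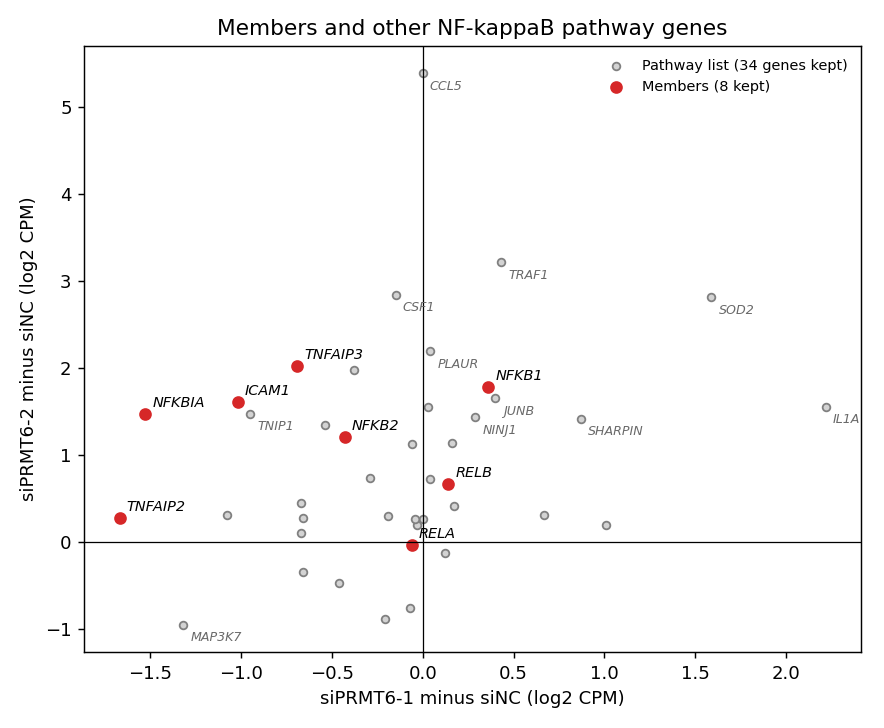
Difference in log2 CPM from siNC with siPRMT6-1 (horizontal) and siPRMT6-2 (vertical) for the 8 members (red) and 34 other pathway genes (grey) that passed the filter on low counts, each point 1 gene. Both axes share the siNC library. NFKBIA, ICAM1, TNFAIP3, NFKB2 and TNFAIP2 lie in the upper left, below siNC with siPRMT6-1 and above it with siPRMT6-2, and RELA lies at the centre.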

How the data were processed

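Total RNA of 3 HEC1B libraries was sequenced after a stranded low-input kit, per the labels' protocols. The submitters' processing notes name STAR 2.7.8a, featureCounts 2.0.10 and the hg38 build, while featureCounts is at 2.0.1 per the file headers. The authors deposited unnormalized counts by gene name over exons. Strand setting 1 was used, and reads in overlapping genes were given to each gene, per the file headers. The headers also mark the alignments as UMI-deduplicated, by a method not given in the sources used.

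The main test was the edgeR 4.0.16 quasi-likelihood F-test (R 4.3.3, TMM, filterByExpr with a minimum count of 10 and a minimum total of 15, two-sided, Benjamini-Hochberg adjustment over 6803 genes, threshold 0.05), with both knockdown libraries against siNC and 1 residual degree of freedom. The lone control library is thereby taken to vary as the knockdown pair does. SEs were taken from the F statistic. In 5 simulated sets of the 6803 genes the test recovered 45.8% of 4-fold and 99.8% of 16-fold changes, with 11 false calls on average. Both knockdown libraries were given the same change in these sets. Recovery where the siRNAs differ in direction, as for 5 of the 8 members kept, was not tested. DESeq2 1.42.0, other fits and other scalings were alternatives. Log2 CPM used a prior count of 2. The knockdown libraries were given different siRNAs, and nothing in the labels names replicate cultures of 1 siRNA. In the spread that p-values measure, siRNA, culture and technical differences thus cannot be told apart. Intervals are at 95% and cover counting error only.

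The members and lists were chosen with earlier results of these data known. Named were all 9 members and PRMT6, 8 pathway genes with the largest mean change of the same direction with both siRNAs and at least 10 counts in 1 library, and the 4 with the most counts. The 5 genes most like the members' sum were taken from genes with at least 100 counts. Promoter sequences are from RefSeq (GRCh38.p14).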

Additional observations from a re-analysis of the deposited data

How the results depend on the processing

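The number of genes called was 0 in the main edgeR fit, 32 with its older quasi-likelihood fit and 31 with its likelihood ratio test. It was also 0 with DESeq2, with other scalings (RLE size factors, total counts only), without the filter on low counts and without opposite-strand genes. Leaving out a knockdown library gave no test. The members' log2 differences from siNC then ran from −0.43 to 1.20 for NFKB2, from −1.53 to 1.47 for NFKBIA, from −0.69 to 2.02 for TNFAIP3, from −1.02 to 1.61 for ICAM1 and from −1.67 to 0.27 for TNFAIP2, so their direction depends on which siRNA is kept. The lowest unadjusted p of a member was 0.0160 (BIRC3, adjusted p above the threshold) without the filter, and 0.0640 to 0.129 in the other alternatives. Of 166 recomputed values, 159 kept their direction and call or moved within their interval, 5 reversed and 2 gained calls. The sum without TNFAIP2, the interferon sum without IFITM3 and the counts without genes kept through siPRMT6-2 alone were chosen after seeing the data. No paired analysis was possible because the control carries no replicate number and the siRNAs differ. Member counts of 0 to 67 a library limit what can be seen.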

Other observations

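The 5 genes nearest to the members' summed profile, among 1900 genes with at least 100 counts, were TIPARP-AS1, HIST1H2BG, NAV2-AS2, RNA5-8S5 and SALL1. Likeness is the distance between the 2 log2 CPM differences from siNC, so it rests on 3 libraries. The members' sum had differences of −0.65 with siPRMT6-1 and 1.03 with siPRMT6-2. TIPARP-AS1, which shares exon bases with TIPARP on the opposite strand, was nearest, at −0.69 and 0.94, with 35, 20 and 59 counts in siNC, siPRMT6-1 and siPRMT6-2. The histone gene HIST1H2BG had 32, 21 and 59 counts and SALL1, a zinc finger transcription factor gene, had 32, 16 and 52. NAV2-AS2 had 121, 74 and 188 counts and the ribosomal RNA gene RNA5-8S5 had 132, 95 and 235.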
